A study of Homo sapiens with 4 samples.

Results

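A set of 10 genes of the microtubule motors were followed in MV4-11 cells, a human acute myeloid leukemia line, with and without knockdown of the transcription factor IRF1. They were KIF5B, KLC1 and KLC2 of kinesin-1, the related motors KIF1B, KIF2A and KIF3B, the dynein subunits DYNC1H1 and DYNC1I2, and the dynactin subunits DCTN1 and DCTN2. The genes were taken by symbol, and all 10 had a row among the 23622 genes of the deposited table. The 2 sh-NC libraries came from cells that the labels call untreated and wild type. The headers of the deposited values and the paper's figures name these cells sh-NC. For other assays the paper describes control cells given an sh-NC lentivirus. Whether the controls sequenced here received it is not stated beyond that name. The 2 sh-IRF1 libraries came from cells labelled as an IRF1 knockdown. In the study, knockdown cells received a pLKO.1 lentivirus carrying the hairpin and were selected with puromycin, and which of the listed hairpins each library carries is not given in the sources used here. The paper says of its experiments in general that they were repeated independently, but no source used here says so of these libraries, so the p-values measure the spread between them, which may be technical.

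Motor proteins walk along microtubules, which are polar filaments of tubulin. Kinesin-1 moves mostly toward the plus end, at the cell periphery, and is built of heavy chains with the motor domain (KIF5B in most cells) and light chains (KLC1 and KLC2) that bind cargo. Cytoplasmic dynein moves toward the minus end, near the centrosome, and needs its activator dynactin and an adaptor protein to carry vesicles, organelles and parts of the mitotic spindle over long distances.

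Each change is given as sh-IRF1 against sh-NC. The hairpin targets that the study lists against IRF1 are shown here in the sense of the transcript, 5′ to 3′. The first lies in the coding part of exon 7 of the 10 exons of the canonical IRF1 transcript, at chr5:132486284-132486304 on the minus strand of GRCh38, and the second in the coding part of exon 8, at chr5:132485672-132485692.
sh-IRF1 hairpin 1: gcaccagtgatctgtacaact
sh-IRF1 hairpin 2: ggaaattacctgaggacatca
Neither 21-base target occurred in any of the 237 GENCODE 44 transcripts of the 10 motor genes. The longest run identical to a target had 7 to 11 bases depending on the gene and the hairpin, with 11 for KIF2A and hairpin 2. Action of a hairpin on these genes through such short matches was not tested. IRF1 itself reached 785 and 738 normalized counts with the control and 430 and 432 with the knockdown. A normalized count is the reads of a gene divided by 1 size factor of its library. The IRF1 level thus stood at 56.6% of sh-NC, with no overlap between the groups (log2 fold change -0.82, standard error 0.0904, adjusted p = 1.69e-10 from limma), and 22.9% of the exonic bases of IRF1 are shared with other genes.

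Promoter sequence was available from RefSeq (GRCh38.p14) for 9 of the 10 motor genes, with no entry for KLC2. The 250 bases before the annotated start are printed for 2 genes that were lower in sh-IRF1 (KIF5B and KIF2A) and 2 that were higher (KIF3B and DYNC1H1), each read 5′ to 3′ on the strand of its gene. They lie at chr10:32056426-32056675 on the minus strand for KIF5B, and on the plus strand at chr5:62305956-62306205 for KIF2A, chr20:32277401-32277650 for KIF3B and chr14:101964323-101964572 for DYNC1H1. Capitals mark each GC box, GGGCGG or its reverse complement CCGCCC, the letters bound by SP-family factors.
KIF5B: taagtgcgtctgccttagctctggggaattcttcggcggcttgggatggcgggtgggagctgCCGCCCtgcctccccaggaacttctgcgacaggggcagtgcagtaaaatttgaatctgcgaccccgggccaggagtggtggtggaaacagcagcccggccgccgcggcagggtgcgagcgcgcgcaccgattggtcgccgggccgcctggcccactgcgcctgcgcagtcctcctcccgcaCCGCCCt
KIF2A: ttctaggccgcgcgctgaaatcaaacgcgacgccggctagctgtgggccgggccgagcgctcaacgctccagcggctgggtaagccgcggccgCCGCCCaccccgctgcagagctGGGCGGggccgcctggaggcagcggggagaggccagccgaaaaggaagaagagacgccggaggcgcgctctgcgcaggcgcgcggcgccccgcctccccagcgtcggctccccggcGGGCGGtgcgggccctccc
KIF3B: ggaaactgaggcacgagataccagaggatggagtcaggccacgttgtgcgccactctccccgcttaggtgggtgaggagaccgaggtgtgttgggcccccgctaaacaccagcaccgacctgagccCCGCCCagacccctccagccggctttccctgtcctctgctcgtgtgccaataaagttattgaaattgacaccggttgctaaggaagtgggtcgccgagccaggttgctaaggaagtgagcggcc
DYNC1H1: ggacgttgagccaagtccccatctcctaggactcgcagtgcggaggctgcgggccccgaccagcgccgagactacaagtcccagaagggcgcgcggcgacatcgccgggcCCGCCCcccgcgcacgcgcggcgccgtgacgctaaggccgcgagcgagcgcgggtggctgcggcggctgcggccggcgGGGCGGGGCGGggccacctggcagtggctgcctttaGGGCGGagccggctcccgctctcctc
The printed windows held 2, 3, 1 and 4 GC boxes in that order, so genes of both directions carried them. Over all start sites the motor genes had 15 such windows, of which 11 held a GC box, against 42.6% of the 35116 windows in the RefSeq table. Some genes have several windows and 2 windows of KIF1B overlap, so the 15 are not separate units. The IRF motif GAAANNGAAA was searched on both strands and was in 0 of the 15 windows and in 3.02% of all windows. The ETS motif CCGGAAGT was likewise in 0 of the 15 and in 3.42% of all, and the E-box CACGTG was in 1 window, of DCTN1, and in 6.34% of all. The GC content of the 15 windows ran from 49.2% to 79.2% with a median of 64%, and the median of all windows was 58%. With shares this low over all windows, 0 of 15 for the IRF and ETS motifs does not set the motor genes apart. These matches describe the letters in the windows and are not binding sites. The study mapped IRF1 binding in MV4-11 cells by CUT&Tag, and its peaks were not used here.

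Depth was close to even, with 17635908 and 17651512 reads in the sh-NC libraries and 17697836 and 18695337 in the sh-IRF1 libraries. All 12 myeloid markers chosen for MV4-11 had a mean of at least 10 normalized counts, and their sum was 32356 to 32442 in sh-NC and 28416 to 28597 in sh-IRF1. Single markers of this list differed in both directions, with FLT3 at 17391 and 17412 in sh-NC and 12745 and 12634 in sh-IRF1, MPO at 477 and 443 against 185 and 158, CD14 at 38.0 and 42.1 against 10.9 and 1.87, LYZ at 1824 and 1785 against 3276 and 3218, SPI1 at 5719 and 5472 against 6247 and 6376, and ITGAM at 118 and 166 against 236 and 202. The T cell marker list had at most 2.81 normalized counts in any library and no erythroid marker had a row. B cell markers, of which 2 of 3 were in the table, summed to 84.1 to 112 in sh-NC and 235 to 289 in sh-IRF1. The 1 epithelial marker in the table had 95.5 to 146 and 167 to 186, and the 2 fibroblast markers summed to 28.8 to 29.7 and 39.4 to 52.7. The part of these markers in the results was not tested. In libraries from whole cultures, fewer cells of a kind and less RNA per cell cannot be told apart.

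The motor genes did not move as a block after IRF1 knockdown. Of the 10, 5 were higher and 4 were lower at an adjusted p under 0.05, where 20.3% of the 14120 genes tested were called higher and 21.9% lower. KLC1 was the 1 gene not called. Beyond a log2 fold change of 0.5 in either direction stood KLC2 and KIF3B, which rose, and KIF5B and KIF2A, which fell, and 15.8% of all genes tested were called at that size. The groups did not overlap for any of the 10, which also held for 69.2% of all genes tested, and the median log2 fold change was 0.165 over the 10 and -0.002 over all genes. Fold changes were computed with limma on log2(normalized count + 1), on which low genes show too small a change, and Benjamini-Hochberg adjustment ran over all genes tested.

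**Figure D1:**
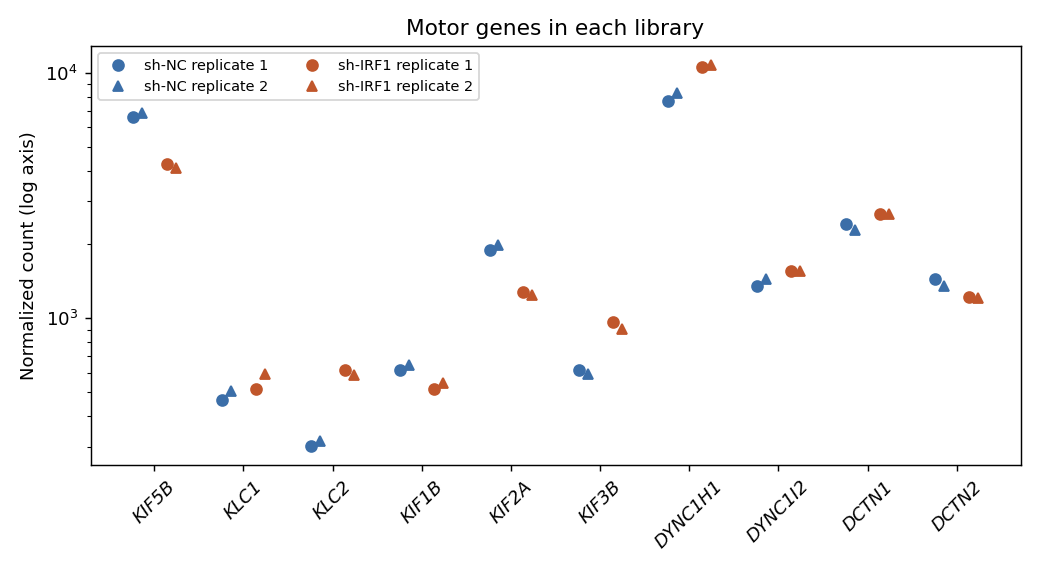
Normalized counts (vertical log axis) of the 10 motor genes in each of the 4 libraries, blue for sh-NC and orange for sh-IRF1, circles for replicate 1 and triangles for replicate 2. KIF5B and KIF2A sit lower in both sh-IRF1 libraries, KLC2, KIF3B and DYNC1H1 sit higher, and for no gene do the groups overlap.

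Within kinesin-1, the heavy chain and a light chain went opposite ways. KIF5B (ENSG00000170759, chr10:32009015-32056425), the ubiquitous heavy chain, had 6629 and 6872 normalized counts in sh-NC and 4239 and 4098 in sh-IRF1. Its mean fell from 6751 ± 172 to 4169 ± 99.8 (SD, n = 2 each), which is 61.8% of the sh-NC level. Both knockdown libraries lay well below both controls, by far more than the spread within a group (log2 fold change -0.70, 95% interval -0.77 to -0.62, adjusted p = 4.97e-21 from limma). KIF5B was among the genes that the study drew from these same libraries, so its direction here is not independent of that choice. The other motor genes were read from the same libraries, so their directions are not independent of the study's results either. KLC2, KIF2A and KIF3B also went beyond the log2 fold change of 0.5 that the study required. None of the exonic bases of KIF5B is shared with another gene.

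KLC2 (ENSG00000174996, chr11:66257294-66267860), a light chain that links the heavy chains to cargo, had 303 and 315 normalized counts in sh-NC and 619 and 588 in sh-IRF1. The level in the knockdown was 195% of that in the control, from 309 ± 8.99 to 604 ± 21.4 (SD, n = 2 each). KLC2 had the highest fold change of the 10 genes (log2 fold change 0.96, 95% interval 0.76 to 1.17, adjusted p = 8.38e-11 from limma). Antisense and overlapping genes share 13.1% of its exonic bases, and the use of strand in the authors' counting is not given in the sources used here.

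The other light chain, KLC1 (ENSG00000126214, chr14:103561896-103714249), had 465 and 506 normalized counts in sh-NC and 516 and 594 in sh-IRF1. The groups only just separated, and the rise from 486 ± 29.5 to 555 ± 55.0 (SD, n = 2 each) did not pass the test (log2 fold change 0.19, 95% interval -0.01 to 0.39, adjusted p = 0.114 from limma). The fold change was 0.13 without sh-NC replicate 1, 0.29 without sh-IRF1 replicate 1 and 0.09 without sh-IRF1 replicate 2. The KLC1 value is uncertain, since 40.6% of its exonic bases are shared, mostly with the antisense DNA repair gene XRCC3. XRCC3 had a log2 fold change of 0.19 as well (adjusted p = 0.0621 from limma). Of the other kinesin-1 genes, the heavy chain KIF5C had few reads, with means of 24.6 and 21.0 normalized counts (log2 fold change -0.28, adjusted p = 0.658). The light chain KLC4 had means of 179 and 205 (0.21, adjusted p = 0.301), and KIF5A and KLC3 had no row.

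The ratios within each library restate the same counts, and those with KLC1 carry the uncertainty of its shared bases. The log2 ratio of KLC2 to KLC1 was -0.62 and -0.68 in sh-NC and 0.26 and -0.01 in sh-IRF1, a difference of 0.77. In linear terms KLC2 had 0.638 reads for each KLC1 read in sh-NC and 1.09 in sh-IRF1, so the light chains came to near equal read numbers. KIF5B stood against the sum of both light chains at a log2 ratio of 3.11 and 3.06 in sh-NC and of 1.90 and 1.79 in sh-IRF1, a difference of -1.24. This is a fall from 8.48 to 3.60 KIF5B reads for each light chain read. Both ratios separated the groups, but an exact two-sided permutation test of 2 against 2 libraries cannot go below p = 0.333, the value it gave for each.

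**Figure D2:**
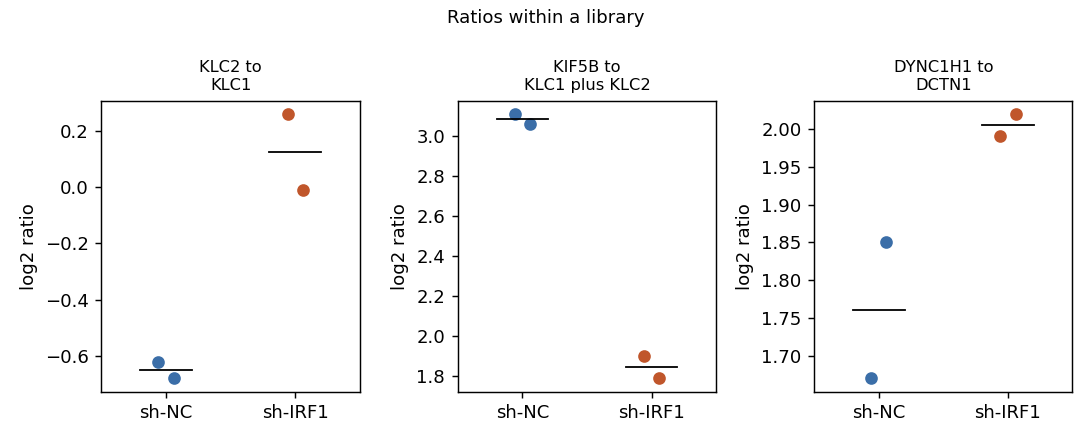
Log2 ratio of normalized counts within each library (vertical axis, a separate scale per panel) for KLC2 to KLC1, KIF5B to both light chains, and DYNC1H1 to DCTN1. Each point is a library and each line a group mean, and the sh-IRF1 points lie above sh-NC in the left and right panels and below in the middle one.

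The plus-end motors outside kinesin-1 also split. KIF3B (ENSG00000101350, chr20:32277651-32335011), a motor subunit of heterotrimeric kinesin-2, which carries ciliary and vesicle cargo, had 615 and 593 normalized counts in sh-NC and 965 and 906 in sh-IRF1. It rose to 155% of the control level, from 604 ± 16.1 to 935 ± 41.6 (SD, n = 2 each), with log2 fold change 0.63, 95% interval 0.47 to 0.79 and adjusted p = 5.68e-09 from limma. Of the 5 kinesin-2 subunits tested, 3 rose, 0 fell and 2 did not pass, with a median log2 fold change of 0.58. For this and the lists that follow, the shares over all genes tested were 20.3% higher, 21.9% lower and 42.2% called, and lists this short were described and not tested. KIF3C, which can pair with KIF3A, rose from 181 to 271 normalized counts (0.58, adjusted p = 0.000874), and the homodimeric motor KIF17 rose from 50.3 to 80.0 (0.67, adjusted p = 0.0368). Whether the KIF17 call holds when a library is left out was not checked. Values for KIF3A, the usual partner of KIF3B, were near 0 (log2 fold change -0.00, adjusted p = 0.995), and those for the cargo-binding subunit KIFAP3 were 0.11 and 0.529.

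KIF1B (ENSG00000054523, chr1:10210570-10381603), a kinesin-3 motor known for carrying mitochondria and synaptic vesicle precursors, had 619 and 646 normalized counts in sh-NC and 517 and 546 in sh-IRF1. It fell to 84.1% of the control level (log2 fold change -0.25, 95% interval -0.43 to -0.07, adjusted p = 0.022 from limma). The gap between the groups was small, and the call was lost under 4 of 15 alternative settings, with adjusted p = 0.111 without sh-NC replicate 2 and 0.146 without sh-IRF1 replicate 1. Its relatives went both ways, since of 5 kinesin-3 motors tested 2 rose, 2 fell and 1 did not pass. KIF1C, a vesicle motor, rose from 1457 to 1883 normalized counts (0.37, adjusted p = 2.34e-07), while KIF13B fell from 442 to 209 (-1.08, adjusted p = 5.09e-10). KIF16B, an endosome motor, had 17.4 and 22.6 in sh-NC and 38.8 and 41.2 in sh-IRF1 and rose (0.97, adjusted p = 0.0391). KIF16B lost its call without sh-NC replicate 1 (adjusted p = 0.134), without sh-IRF1 replicate 1 (0.135) and without sh-IRF1 replicate 2 (0.181). KIF1A, a neuronal motor, had only 5.64 and 14.1 normalized counts on average (1.41, adjusted p = 0.127), and was called without sh-NC replicate 1 (2.28, adjusted p = 0.0417).

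KIF2A (ENSG00000068796, chr5:62306162-62391025) is a kinesin-13, which does not walk but takes tubulin off microtubule ends, for example at spindle poles. Its 1894 and 1997 normalized counts in sh-NC compared with 1284 and 1250 in sh-IRF1, a fall from 1945 ± 72.9 to 1267 ± 24.2 (SD, n = 2 each). The level was 65.1% of the control and the groups lay far apart (log2 fold change -0.62, 95% interval -0.73 to -0.50, adjusted p = 9.79e-13 from limma). KIF2A shares 21.3% of its exonic bases, mostly with the antisense gene DIMT1, which fell too (log2 fold change -0.47, adjusted p = 6.1e-08 from limma). Reads in the shared stretch cannot be assigned to either gene of the pair without strand. KIF2C, the mitotic kinesin-13, rose from 2013 to 2248 normalized counts (0.16, adjusted p = 0.00805), a call lost without sh-NC replicate 2 (adjusted p = 0.0624) and without sh-IRF1 replicate 1 (0.104).

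**Figure D3:**
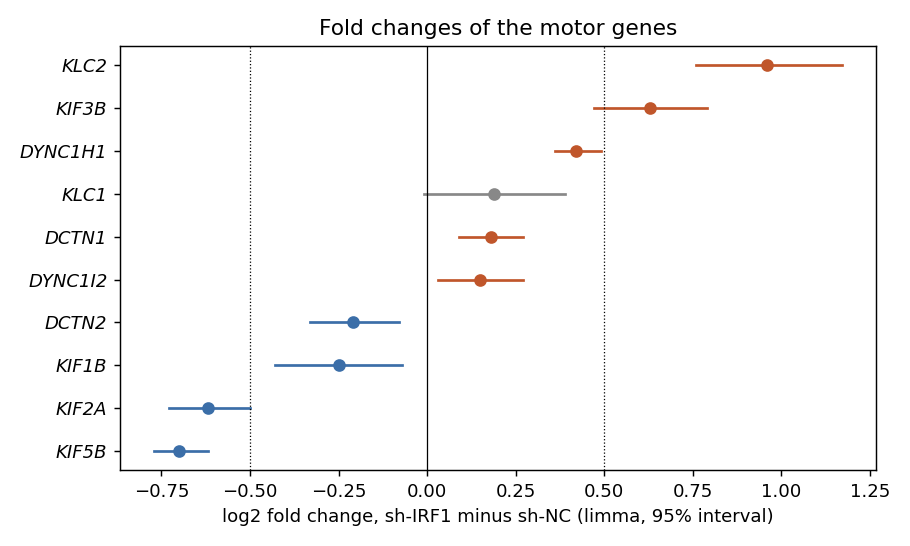
Log2 fold change of the 10 motor genes, sh-IRF1 minus sh-NC (horizontal axis), as points with 95% intervals from limma. Orange marks genes called higher, blue genes called lower and grey the gene not called, and dotted lines mark 0.5 on either side. KLC2 at 0.96 and KIF5B at -0.70 are the ends of the range.

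On the dynein side the heavy chain rose. DYNC1H1 (ENSG00000197102, chr14:101964573-102056443), which holds the motor of cytoplasmic dynein, had 7674 and 8284 normalized counts in sh-NC and 10581 and 10777 in sh-IRF1. It reached 134% of the control level, from 7979 ± 431 to 10679 ± 139 (SD, n = 2 each). The lowest knockdown library stood far above the highest control (log2 fold change 0.42, 95% interval 0.36 to 0.49, adjusted p = 4.07e-15 from limma), and 2.66% of the exonic bases are shared.

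DYNC1I2 (ENSG00000077380, chr2:171687409-171750158), the intermediate chain through which dynein binds dynactin, had 1359 and 1447 normalized counts in sh-NC and 1555 and 1556 in sh-IRF1. The rise to 111% was small (log2 fold change 0.15, 95% interval 0.03 to 0.27, adjusted p = 0.0358 from limma). It was lost under 5 of 15 alternative settings, among them without sh-NC replicate 1 (adjusted p = 0.238), without sh-IRF1 replicate 1 (0.136) and without sh-IRF1 replicate 2 (0.144). A named pseudogene in the table had reads equal to 5.24% of those of DYNC1I2. The other intermediate chain, DYNC1I1, had too few reads for the test.

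Among all 8 dynein-1 subunits tested, 3 rose, 1 fell and 4 did not pass, with a median log2 fold change of 0.09. Besides DYNC1H1 and DYNC1I2, the riser was DYNLRB1, a roadblock light chain, which went from 599 to 1277 normalized counts (1.09, adjusted p = 8.54e-17). Another gene on its own strand covers 26.1% of its exonic bases. DYNLL1, a light chain that also serves other complexes, fell from 1645 to 1453 (-0.18, adjusted p = 0.00893). Its call was lost without sh-NC replicate 2 (adjusted p = 0.0553) and without sh-IRF1 replicate 1 (0.098). The light intermediate chains, which bind adaptors, had log2 fold changes of -0.11 for DYNC1LI1 (adjusted p = 0.226) and 0.17 for DYNC1LI2 (adjusted p = 0.05, on the threshold and called under 6 alternative settings).

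Subunits of dynactin, the activator, went both ways. DCTN1 (ENSG00000204843, chr2:74361154-74392087), the p150Glued subunit that grips the microtubule and the dynein intermediate chain, had 2416 and 2291 normalized counts in sh-NC and 2672 and 2659 in sh-IRF1. It rose to 113% of the control (log2 fold change 0.18, 95% interval 0.09 to 0.27, adjusted p = 0.00156 from limma), with 11.8% of its exonic bases shared. DCTN2 (ENSG00000175203, chr12:57529633-57547224), the dynamitin subunit of the same shoulder, moved the other way, with 1450 and 1354 in sh-NC and 1218 and 1208 in sh-IRF1. It fell to 86.5% (log2 fold change -0.21, 95% interval -0.33 to -0.08, adjusted p = 0.0053 from limma), and lost its call without sh-NC replicate 1 (adjusted p = 0.0814) and without sh-IRF1 replicate 2 (0.0533).

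Of the 12 dynactin subunits tested, 2 rose, 6 fell and 4 did not pass, with a median log2 fold change of -0.15. ACTR1B, a minor actin-related subunit of the filament, fell from 878 to 605 normalized counts (-0.54, adjusted p = 2.75e-07), while its major form ACTR1A rose from 1827 to 2017 (0.14, adjusted p = 0.0255). The ACTR1A call was lost without sh-NC replicate 2 (adjusted p = 0.0955) and without sh-IRF1 replicate 2 (0.288). CAPZA1, a capping protein of actin filaments that also caps dynactin, fell from 4761 to 4308 (-0.14, adjusted p = 0.00164). DCTN6 of the pointed end fell from 505 to 386 (-0.39, adjusted p = 0.00186), with 30.1% of its bases shared, and DCTN4 fell from 2705 to 2471 (-0.13, adjusted p = 0.0216). DCTN4 lost its call without sh-NC replicate 2 (adjusted p = 0.134) and without sh-IRF1 replicate 2 (0.316). Values for DCTN3 (-0.17, adjusted p = 0.083), ACTR10 (-0.22, adjusted p = 0.0666) and DCTN5 (-0.05, adjusted p = 0.511) did not pass.

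The log2 ratio of DYNC1H1 to DCTN1 was 1.67 and 1.85 in sh-NC and 1.99 and 2.02 in sh-IRF1. The difference of 0.24 was close to the gap between the control libraries, and was 0.15 without sh-NC replicate 1 and 0.33 without sh-NC replicate 2. The exact permutation test again gave its smallest p of 0.333.

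**Figure D4:**
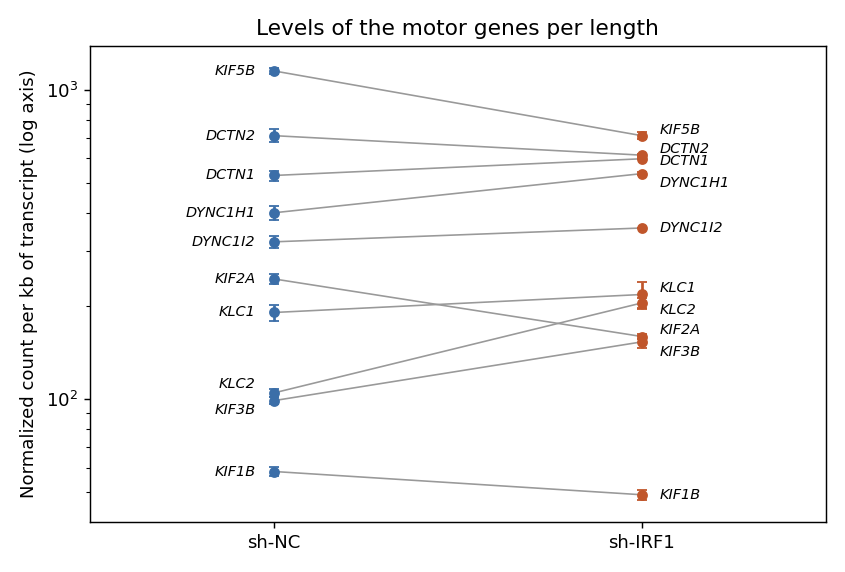
Normalized count per kilobase of canonical transcript (vertical log axis) for the 10 motor genes, as group means with SD bars (n = 2) joined by lines from sh-NC to sh-IRF1. KIF5B stays on top while its lead narrows, and KLC2 rises past KIF2A.

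Levels can be set beside each other between genes only per length. In normalized counts per kilobase of the canonical transcript, KIF5B was highest in sh-NC at 1151 ± 29.4, followed by DCTN2 at 711 ± 34.7, DCTN1 at 528 ± 19.7, DYNC1H1 at 400.1 ± 21.6 and DYNC1I2 at 322 ± 14.3 (SD, n = 2 each). KIF2A had 244 ± 9.16 per kilobase, KLC1 190.4 ± 11.6, KLC2 105 ± 3.04, KIF3B 98.8 ± 2.64 and KIF1B 58.2 ± 1.79, and no neighbours in this order overlapped between libraries. In sh-IRF1 the first 5 places kept their order, at 711 ± 17.0, 615 ± 3.50, 598 ± 2.01, 536 ± 6.96 and 357 ± 0.257 per kilobase. The lower places changed, with KLC1 at 218 ± 21.6 and KLC2 at 204 ± 7.25, whose libraries overlapped, now above KIF2A at 159 ± 3.04. KIF2A and KIF3B, at 153 ± 6.80, overlapped too, and KIF1B remained lowest at 49.0 ± 1.89.

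The wider transport machinery was described by lists of motors, adaptors and tracks. Beside the 10 genes these held 108 genes, of which 96 were in the table and 92 were tested. Of the 92, 22 rose, 23 fell and 47 did not pass, so 48.9% were called against 42.2% of all genes tested, with a median log2 fold change of 0.02. The split depended on the scaling and the libraries, with 27 higher and 17 lower under total-count scaling, where all genes split 3428 to 2647, and 15 higher and 22 lower without sh-IRF1 replicate 1.

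Of 12 mitotic kinesins, 2 were higher, 2 lower and 8 not called, so 33.3% were called, near the 42.2% of all genes. KIFC1, a minus-end motor of spindle poles (0.22, adjusted p = 0.000404), and KIF18B, a regulator of astral microtubules (0.23, adjusted p = 0.00381), rose. KIF14, a motor of cytokinesis, fell from 1463 to 1108 normalized counts (-0.40, adjusted p = 4.89e-07), and so did CENPE, the kinetochore motor (-0.14, adjusted p = 0.0446). KIF18B lost its call without sh-NC replicate 2 (adjusted p = 0.0657) and without sh-IRF1 replicate 2 (0.0681), and CENPE under 7 of its settings, up to adjusted p = 0.467 without sh-IRF1 replicate 2. Among 7 other kinesins tested, 1 rose, 1 fell and 5 did not pass. KIFC3, a minus-end motor, fell from 244 to 113 normalized counts (-1.12, adjusted p = 3.05e-07). KIF26B rose (0.43, adjusted p = 0.0351), a call lost without sh-NC replicate 1 (adjusted p = 0.24), without sh-IRF1 replicate 1 (0.244) and without sh-IRF1 replicate 2 (0.0762).

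**Figure D5:**
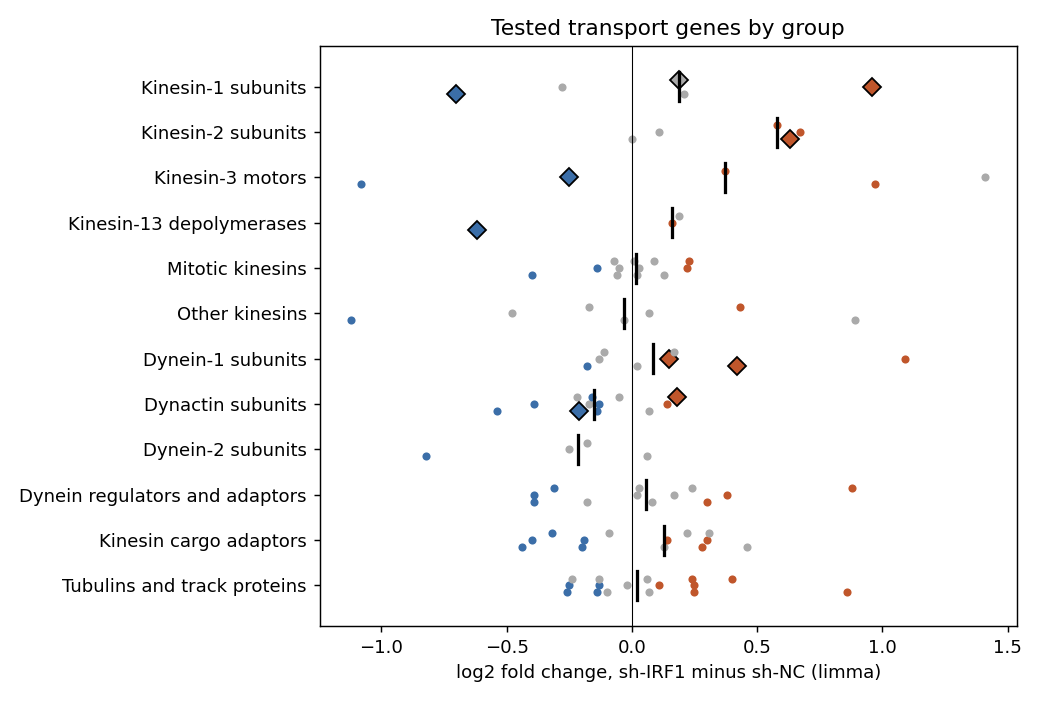
Log2 fold change, sh-IRF1 minus sh-NC (horizontal axis), of every tested transport gene by group, with diamonds for the 10 motor genes, dots for other genes and a black line for each group's median. Orange marks genes called higher, blue lower and grey not called. Kinesin-2 has its median at 0.58 and dynactin at -0.15.

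Adaptors and regulators of dynein were divided, with 3 of 12 tested higher, 3 lower and 6 not called. BICDL1, an adaptor that joins dynein to RAB6 vesicles, rose from 401 to 737 normalized counts (0.88, adjusted p = 1.01e-10), and BICD2 rose from 1356 to 1764 (0.38, adjusted p = 3.56e-07). HOOK3, an adaptor of endosomes and the Golgi, fell from 3367 to 2572 (-0.39, adjusted p = 3.18e-10), and NDE1, a partner of LIS1, fell from 1553 to 1249 (-0.31, adjusted p = 2.95e-05) with 20.4% of its bases shared. Of the 4 subunits of dynein-2, the motor of cilia, 0 rose, 1 fell and 3 did not pass. The one that fell was the heavy chain DYNC2H1, from 203 to 118 normalized counts (-0.82, adjusted p = 0.000275), a call lost without sh-IRF1 replicate 1 (-0.49, adjusted p = 0.0596).

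Cargo adaptors of kinesin had 3 of 13 higher, 5 lower and 5 not called. The mitochondrial adaptors went apart, as TRAK1 rose from 1719 to 2080 normalized counts (0.28, adjusted p = 3.2e-05) and TRAK2 fell from 1507 to 1139 (-0.40, adjusted p = 3.05e-07). PLEKHM2, which links lysosomes to kinesin-1 light chains, rose from 1801 to 2223 (0.30, adjusted p = 2.53e-06). Tubulins and track proteins had 6 of 16 higher, 4 lower and 6 not called. TUBA4A, an alpha tubulin, rose from 1087 to 1969 normalized counts (0.86, adjusted p = 4.89e-17) and TUBA1B from 12366 to 16330 (0.40, adjusted p = 7.95e-17), with 20% and 44% of their bases shared with other genes. The beta tubulin TUBB4B (-0.26, adjusted p = 1.6e-09) and the microtubule-binding protein MAP4 (-0.25, adjusted p = 4.16e-07) fell. Alpha and beta tubulins each went both ways. The beta tubulin TUBB rose from 28183 to 33591 (0.25, adjusted p = 4.24e-13 from limma), with 13.5% of its bases shared. The alpha tubulin TUBA1C fell from 4197 to 3839 (-0.13, adjusted p = 0.00988 from limma), with 22.7% shared. Whether the TUBB and TUBA1C calls hold when a library is left out was not checked.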

How the data were processed

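RNA from 4 MV4-11 libraries (Trizol, TruSeq RNA kit, total RNA) was sequenced for the study. The authors deposited a normalized signal per gene, the reads divided by 1 size factor per library, and 0 other columns of per-sample values. The submitters' processing notes name HISAT2 (2.0.5) and hg38; the counting tool, annotation and strand setting are not given in the sources used here, and the paper names FPKM and DESeq2. Whole reads were recovered: 100% of values lay within 0.01 of a whole read. limma (3.58.1, R 4.3.3; trend and robust settings) was fitted on log2(value + 1) over the 14120 genes with at least 10 in at least 2 libraries. edgeR (4.0.16) and DESeq2 (1.42.0) on the recovered reads were alternatives, and the scripts were tested on simulated data. Symbols matched 23456 of 23622 identifiers, and positions and shared exonic bases came from GENCODE 44 (GRCh38). Values of genes with over 10% shared were treated as uncertain. Such shares not given beside a motor or partner gene above were 11.4% for KLC4, 13.3% for ACTR1A, 14% for KIFC1, 22.1% for DYNC1LI2 and 26.1% for DCTN5.

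The motor genes and lists were chosen with earlier results of these data known. Named genes were IRF1, the 10 motor genes, their paralogues and partner subunits, and in each list the 2 genes with the smallest p per direction among those called. KIF17, XRCC3, DIMT1, TUBB and TUBA1C were added after their values were seen. A gene that this rule also names is not reported here. The main fit did not pair the libraries by replicate number. The correlation of deviations between same-numbered libraries was -0.0154, which gave no sign of pairing but cannot show how the libraries were prepared. Replicates differed beyond sampling noise, with a mean chi-square per gene of 2.93 between the controls and 2.47 between the knockdown libraries.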

Additional observations from a re-analysis of the deposited data

How the results depend on the processing

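KIF5B, KLC2, KIF2A, KIF3B, DYNC1H1 and DCTN1 kept their direction and their call under all 15 alternatives that refit the genes. KLC1 was called under total-count scaling (log2 fold change 0.24, adjusted p = 0.0465). KIF1B lost its call there (0.0611) and in DESeq2 (0.0616), and DYNC1I2 lost its call without a filter (0.0557) and in DESeq2 (0.0872). Of the other named genes, DCTN4, ACTR1A, KIF16B, KIF26B and CENPE also lost their calls in DESeq2 (adjusted p = 0.057, 0.0624, 0.107, 0.104 and 0.111). DCTN4, DYNLL1 and CENPE did so in limma under total-count scaling (0.133, 0.0508 and 0.177). KIF16B and CENPE did so in limma without a filter (0.0522 and 0.063). The number of motor genes beyond 0.5 was 0 at a minimum log2 fold change of 1 and 5 at 0.25. The median log2 fold change of the 10 genes was 0.209 under total-count scaling, which moves the median of all genes to 0.042, and ran from 0.116 to 0.168 when each library was left out. With the replicate block 5 motor genes were higher and 4 lower, and 23 of the other transport genes were higher and 23 lower. KIF5C ran from -0.75 to 0.19 when each library was left out, turning positive without sh-IRF1 replicate 2. KIF3A was 0.04 under total-count scaling and 0.00 in edgeR, and ran from -0.12 to 0.11 when each library was left out. With n = 2, the spread of a single gene is poorly known.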
